A study of Mus musculus with 6 samples.

Results

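The A-kinase anchoring protein (AKAP) genes Akap1, Akap5, Akap6, Akap7, Akap8, Akap9, Akap10, Akap11, Akap12 and Akap13 were described in the hippocampus of mice that overexpress the calcium channel gene ORAI1 in neurons. The rule takes them by their gene symbol, although it was set with results of these data known, among them the fall of Akap9, and they make up 10 of the 54838 genes of the count table. Each was found once, and none of the 10 was lost to the filter on low counts, which kept 19087 genes. RNA of 1 hippocampus per mouse was sequenced as polyadenylated RNA in 6 females aged 7 months. The 3 wild-type mice had the FVB/NJ background. The 3 transgenic mice, named FVB/NJ-Tg(Orai1)Ibd in the labels and Tg(ORAI1)Ibd below, had the same background and carried human ORAI1 cDNA under the Thy1.2 cassette, which drives a transgene in neurons, so that other cells of the tissue were not targeted. Animals of 1 transgenic line were compared with wild-type animals, with no other treatment in either group.

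AKAPs are scaffolds that bind the regulatory subunits of protein kinase A (PKA) and hold the enzyme at a given place in the cell, where its local substrates are phosphorylated when cyclic AMP rises. Adenylyl cyclases make cyclic AMP, phosphodiesterases break it down, and many AKAPs also bind phosphatases, protein kinase C or phosphodiesterases, so that opposing enzymes share a single complex. In hippocampal neurons they are best known for placing PKA and calcineurin next to glutamate receptors and calcium channels of the postsynaptic membrane. AKAPs are a functional family, defined by binding to PKA and not by a shared overall sequence. Counts per gene pool all isoforms, so that the long centrosomal and the short synaptic form of Akap9, for instance, could not be separated.

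Promoter sequences were taken from RefSeq on GRCm38.p6, 250 bases before to 50 bases after an annotated start, and were found for 9 of the 10 genes in 13 windows. None was found for Akap12. The windows of the 3 AKAP genes with the smallest p-values between genotypes are shown, for Akap11 1 of its 2 windows, on the strand of the gene and from 5′ to 3′, with 2 kinds of motif in capitals. These motifs are the GC box, GGGCGG or CCGCCC on the other strand, and the half-site of the cyclic AMP response element, TGACG or CGTCA on the other strand.
Akap9 (chr5:3927936-3928235, + strand): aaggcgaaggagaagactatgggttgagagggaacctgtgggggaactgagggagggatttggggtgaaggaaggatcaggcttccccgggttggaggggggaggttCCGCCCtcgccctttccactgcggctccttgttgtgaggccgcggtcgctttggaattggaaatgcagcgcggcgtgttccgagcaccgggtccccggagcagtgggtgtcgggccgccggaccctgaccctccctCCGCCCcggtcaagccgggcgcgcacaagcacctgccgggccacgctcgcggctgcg
Akap5 (chr12:76324641-76324940, + strand): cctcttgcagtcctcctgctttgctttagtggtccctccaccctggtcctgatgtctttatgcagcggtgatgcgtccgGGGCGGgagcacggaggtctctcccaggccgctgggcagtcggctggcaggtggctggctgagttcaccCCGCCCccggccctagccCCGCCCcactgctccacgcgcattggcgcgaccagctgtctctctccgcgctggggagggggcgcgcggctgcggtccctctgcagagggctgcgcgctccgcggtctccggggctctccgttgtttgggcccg
Akap11 (chr14:78536811-78537110, − strand): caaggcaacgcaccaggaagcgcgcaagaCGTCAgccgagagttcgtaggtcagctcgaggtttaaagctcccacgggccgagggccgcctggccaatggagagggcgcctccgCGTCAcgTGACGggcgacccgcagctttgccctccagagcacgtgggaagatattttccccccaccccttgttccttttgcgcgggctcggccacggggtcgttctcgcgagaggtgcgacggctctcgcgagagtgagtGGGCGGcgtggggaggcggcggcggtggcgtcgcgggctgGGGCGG

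GC content of the printed windows was 67.7% for Akap9, 70.7% for Akap5 and 69.0% for Akap11, while the second Akap11 window, at an internal start (chr14:78522653-78522952), had 35.7% and neither motif, and the median of all 32851 windows was 52.7%. The full response element TGACGTCA, which contains both half-sites, was in 0 of the 13 AKAP windows and in 1.79% of all windows. A half-site was found in 1 of the 13 windows, the printed one of Akap11, with 3 matches at positions -221, -136 and -129 from the start, and in 20.8% of all windows. That window lies wholly upstream of the GENCODE M21 gene model of Akap11 (78492246 to 78536808), so the 2 annotations differ in its start. GC boxes were present in 10 of the 13 windows, which belong to 7 genes, and in 35.7% of all windows. The Akap1 windows at chr11:88851454-88851753 and chr11:88851463-88851762 overlap and hold the same GC box, which was counted in both. In the Akap9 window they lay at -143 and -7, and in the Akap5 window at -171, -102 and -84. A match describes only these letters in these windows.

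Between 37414241 and 52497799 fragments were counted on genes per library. Counts of the AKAP genes ran from 954 (Akap10) to 19365 (Akap11) per library. CPM below are the counts of a gene relative to its library total after TMM scaling, which sets 1 factor per library from the bulk of the genes, and tests are those of edgeR's quasi-likelihood model, adjusted over all 19087 genes by the Benjamini-Hochberg method. Orai1, which is counted together with transgene fragments that align to it, had 302 to 376 counts in wild-type and 11834 to 14620 in transgenic libraries, a log2 fold change of 5.42 ± 0.066 (SE). Among markers of cells that the tissue could hold, all 14 genes of the choroid plexus list fell (edgeR's adjusted p under 0.05), and their summed normalized counts were 2463 to 4419 CPM in wild-type and 251 to 479 CPM in transgenic mice, with none at 0. The 2 with the smallest p-values were Kcnj13 and Kcne2, potassium channel subunits, with log2 fold changes of -2.57 and -3.36 and an adjusted p of 2.31e-04 each by edgeR. Of 8 neuron markers, 0 fell and 1 rose, and their summed CPM overlapped, from 10137 to 10504 and from 10129 to 10773. Of the marker lists for astrocytes (7 genes), oligodendrocytes (7 genes), microglia (7 genes), vascular cells (8 genes) and meningeal fibroblasts (7 genes), a single gene, Cldn5 of the vascular list, passed the test (log2 fold change 0.66). Summed CPM of each of these lists overlapped between genotypes. At edgeR's unadjusted p under 0.05, 2 microglia markers were higher, where 13.0% of all tested genes were. At that level 2 meningeal fibroblast markers were lower, where 14.8% of all tested genes were. Log2 fold changes of the meningeal fibroblast list ran from -1.20 to 0.28. The part of these differences in the AKAP values was not tested.

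To place the family in the tissue, levels were first compared per length, as FPKM, the CPM divided by the exonic length in kilobases. Akap11 and Akap8 were the most abundant transcripts in wild-type mice, with 33.0 ± 0.531 and 32.4 ± 2.43 FPKM (mean ± SD, n = 3), followed by Akap6 with 16.4 ± 0.921, Akap5 with 12.3 ± 1.62 and Akap1 with 11.1 ± 0.240 FPKM. The lower 5 were Akap7 with 7.56 ± 0.389, Akap13 with 6.99 ± 0.527, Akap12 with 5.44 ± 0.697, Akap9 with 4.66 ± 0.232 and Akap10 with 4.65 ± 0.148 FPKM. The family thus spanned a 7.10-fold range of wild-type means, and each member lay above the median of the tested genes, from the percentile 54.9 of Akap10 to 92.7 of Akap11. In this order, the values of the 3 wild-type mice overlapped for 4 of the 9 neighbouring pairs (Akap11 and Akap8, Akap5 and Akap1, Akap7 and Akap13, Akap9 and Akap10) and did not overlap for the other 5. Part of the order was turned in transgenic mice, with means of 28.3 ± 1.80 FPKM for Akap11 and 32.8 ± 1.05 for Akap8, and Akap8 was above Akap11 in each of these 3 mice. Likewise Akap1, with 10.5 to 11.3 FPKM, was above Akap5, with 9.41 to 9.98, in each transgenic mouse, and Akap10, with 4.15 ± 0.361, was above Akap9, with 3.72 ± 0.123. The transgenic mean of Akap13, 7.63 ± 0.367 FPKM, was above that of Akap7, 7.31 ± 0.545, though 1 transgenic mouse kept the wild-type order. Without division by length Akap9 ranked 5 and Akap13 ranked 3 by wild-type CPM, since both are among the longest transcripts of the tissue.

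**Figure D1:**
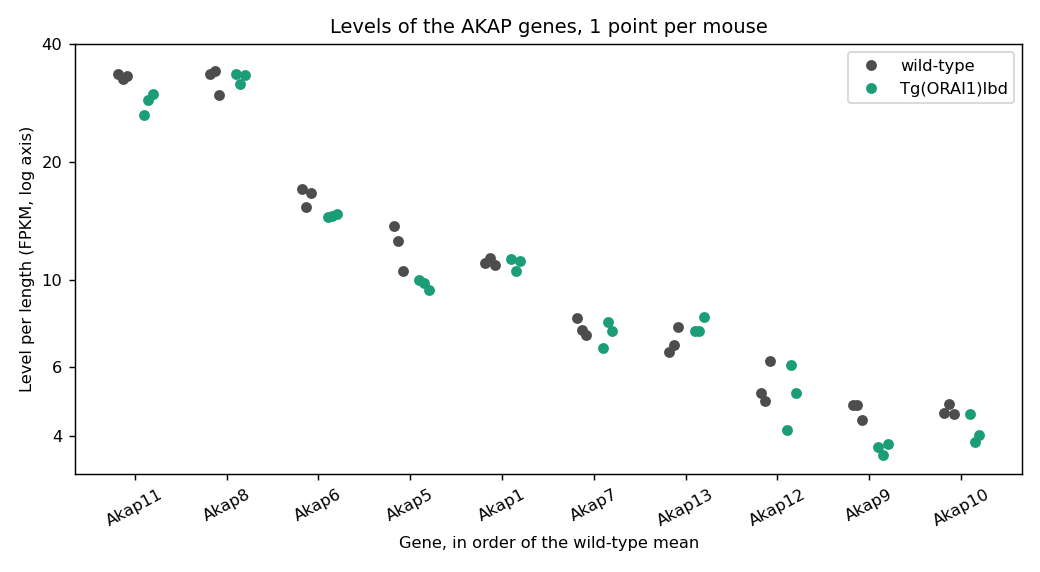
Level per length (FPKM, log axis) of the 10 AKAP genes, 1 point per mouse, in the order of the wild-type mean. Akap11 and Akap8 lie between 29.6 and 34.1 FPKM in wild-type mice and Akap9 and Akap10 below 5, and the transgenic points of Akap5, Akap6, Akap9 and Akap11 lie below all their wild-type points.

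Between genotypes, Akap9 fell in transgenic mice and no other AKAP gene passed the test, by edgeR with an adjusted p under 0.05. This is 1 of 10 genes called, a lower one, where 7.10% of all tested genes were called, 764 of 19087 as lower and 591 as higher. At an unadjusted p under 0.05, Akap5, Akap6, Akap9 and Akap11 were lower, 4 of 10 where 14.8% of all tested genes were, and 0 were higher where 13.0% of all were. These 4 were also the genes whose transgenic values lay below every wild-type value, which held for 17.9% of all tested genes. Of the 10 log2 fold changes 8 were below 0, from -0.34 for Akap5 to 0.13 for Akap13, and their median was -0.12 where that of all tested genes was -0.010. Summed over the family, the wild-type libraries had 1228, 1188 and 1194 CPM and the transgenic libraries 1067, 1094 and 1125 CPM, without overlap. This sum is weighted by level, with wild-type means of 364 CPM for Akap11 and 243 CPM for Akap6. Both are among the 4 genes above, so the sum is not separate from them. Fewer cells of a type and less RNA per cell cannot be told apart in RNA of a whole tissue. Nothing in the labels says how the mice were housed or processed together, so p-values refer to the spread between these 6 animals. For a single gene, an exact two-sided permutation test with 3 mice against 3 cannot give a p below 0.1.

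**Figure D2:**
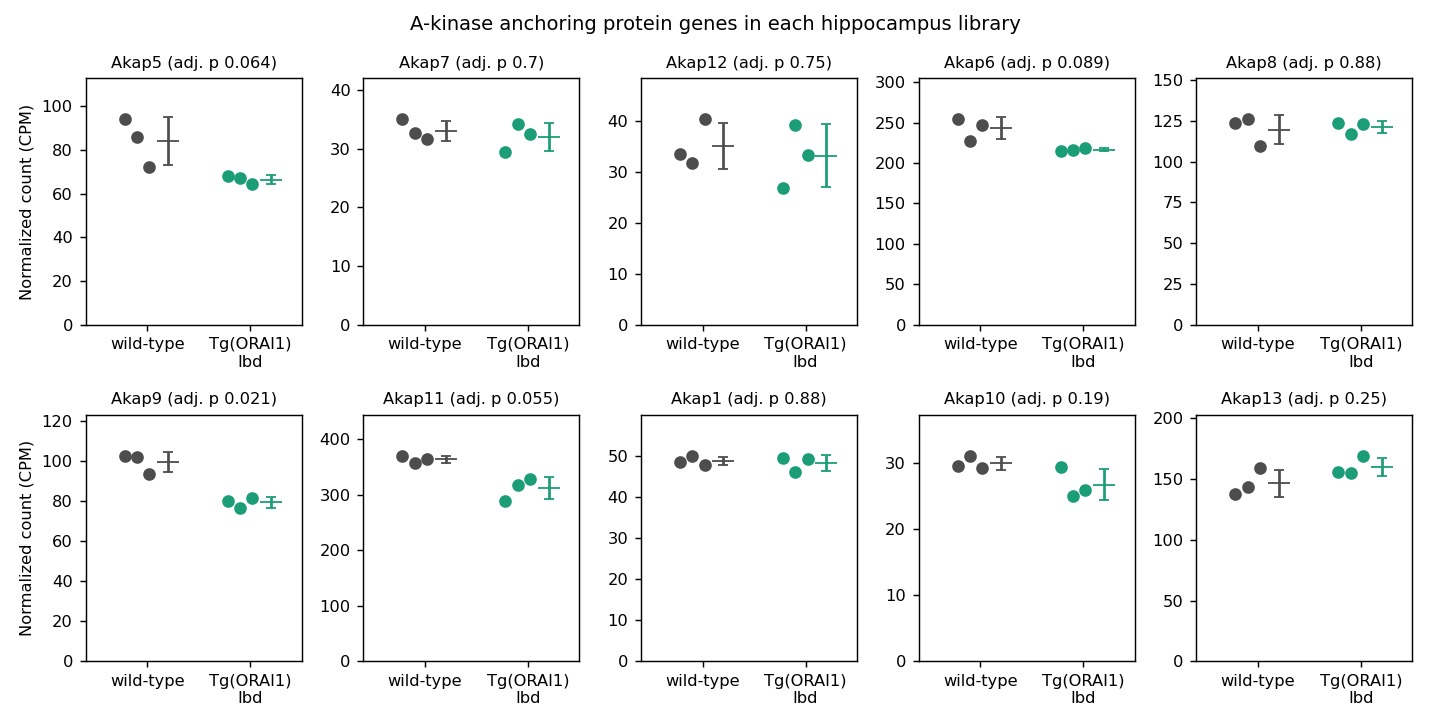
Normalized count (CPM, axis from 0) of each AKAP gene in the 3 wild-type and 3 Tg(ORAI1)Ibd mice (points) with mean and SD (bars), and the adjusted p of edgeR's quasi-likelihood test in each title. The points of Akap5, Akap6, Akap9 and Akap11 do not overlap between genotypes, and those of the other 6 genes do.

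Akap9, on chromosome 5 from 3928054 to 4081310 (+ strand, GRCm38), encodes a large coiled-coil protein of the centrosome and Golgi apparatus, and its short form, yotiao, binds NMDA receptors at synapses. It was counted 5368, 4321 and 3554 times in wild-type and 3736, 2922 and 3059 times in transgenic libraries, which gave 102, 102 and 93.8 CPM against 80.0, 76.5 and 81.6 CPM. Each transgenic mouse was thus below each wild-type mouse, by more than the spread within either group. The mean fell from 99.5 ± 4.96 to 79.4 ± 2.62 CPM (SD, n = 3), a log2 fold change of -0.33 ± 0.052 (SE) with an adjusted p of 0.0212 by edgeR, so that Akap9 RNA fell by 20.2%. The call was lost when gene properties were taken into account, with an adjusted p by edgeR of 0.0618 with offsets for GC content, 0.0633 for length and 0.0898 for both, where the log2 fold change was -0.15. It also depended on single mice. Without the first wild-type mouse edgeR's adjusted p was 0.126, without the second 0.119, without the second transgenic mouse 0.0785 and without the third 0.0864, whereas it was 0.0206 without the third wild-type and 0.0301 without the first transgenic mouse. In the fits that lacked a mouse the log2 fold change of Akap9 ran from -0.36 to -0.28, and the share of all tested genes called lower from 0.342% to 3.52%.

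Akap11 (chromosome 14, 78492246 to 78536808, − strand) encodes AKAP220, a vesicle-associated anchor that also binds glycogen synthase kinase 3β and protein phosphatase 1. Its transcript was the most frequently counted of the family, with 370, 358 and 364 CPM in wild-type and 290, 318 and 328 CPM in transgenic mice. The wild-type mice lay close together, with a coefficient of variation of 1.61%, and all 3 transgenic mice were below them. Means were 364 ± 5.85 and 312 ± 19.9 CPM, the log2 fold change was -0.22 ± 0.056, and the adjusted p was 0.0554 by edgeR. With GC offsets the log2 fold change was -0.074 (adjusted p 0.294) and with both offsets -0.020 (0.823).

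Among the anchors of the plasma membrane, Akap5 (chromosome 12, 76324891 to 76334153, + strand) encodes AKAP150, the postsynaptic scaffold that joins PKA, protein kinase C and calcineurin to AMPA receptors and L-type calcium channels. Wild-type mice had 93.9, 86.0 and 72.1 CPM and transgenic mice 68.1, 66.9 and 64.2 CPM. The groups did not overlap, but the wild-type mice were widely spread, with a coefficient of variation of 13.1% against 2.99% in the transgenic mice. The log2 fold change of -0.34 ± 0.091 was the lowest of the family, with an adjusted p of 0.0638 by edgeR, and without the third wild-type mouse, the one with the lowest wild-type value, it was -0.43 with an adjusted p of 0.0203. With any other mouse left out the log2 fold change of Akap5 ran from -0.36 to -0.24 and edgeR's adjusted p from 0.0833, without the first transgenic mouse, to 0.218, without the first wild-type mouse. Akap7 (chromosome 10, 25169090 to 25307870, − strand) encodes a small lipid-anchored AKAP that places PKA at L-type calcium channels, and had 35.0, 32.6 and 31.7 CPM against 29.4, 34.2 and 32.4 CPM. Akap12 (chromosome 10, 4266380 to 4359470, + strand) encodes gravin, which binds PKA, protein kinase C and the β2-adrenergic receptor, and had 33.4, 31.8 and 40.3 CPM against 26.8, 39.2 and 33.4 CPM. Both genes overlapped between genotypes. The log2 fold change was -0.049 ± 0.071 for Akap7 and -0.085 ± 0.14 for Akap12, with edgeR's adjusted p of 0.696 and 0.746, and Akap12 had the largest standard error of the 10 genes.

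Of the anchors of the nucleus, Akap6 (chromosome 12, 52699383 to 53155599, + strand) encodes mAKAP, which holds PKA and a cyclic AMP phosphodiesterase at the nuclear envelope. Its values were 254, 228 and 247 CPM in wild-type and 215, 216 and 219 CPM in transgenic mice. The transgenic mice differed little among themselves, with a coefficient of variation of 0.948%, and all lay below the wild-type mice. The log2 fold change was -0.17 ± 0.051 with an adjusted p of 0.0890 by edgeR. Akap8 (chromosome 17, 32303672 to 32321238, − strand) encodes AKAP95, a zinc-finger protein of the nuclear matrix and chromatin, and had 124, 126 and 109 CPM against 124, 117 and 123 CPM. These values overlapped, and the log2 fold change was 0.018 ± 0.062 (edgeR's adjusted p 0.885). The 4 genes without overlap therefore encode anchors of different compartments, namely the postsynaptic membrane, the nuclear envelope, the centrosome and Golgi apparatus, and vesicles.

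Akap1 (chromosome 11, 88830792 to 88864586, − strand) encodes the anchor of the mitochondrial outer membrane, where PKA acts on mitochondrial fission. It was the member closest to equal between genotypes, at 48.5, 50.0 and 47.9 CPM against 49.6, 46.2 and 49.2 CPM, with a log2 fold change of -0.014 ± 0.049 (edgeR's adjusted p 0.883). Akap10 (chromosome 11, 61871307 to 61930252, − strand) encodes an anchor that binds both types of PKA regulatory subunit and holds domains of the RGS family. It had 29.6, 31.1 and 29.3 CPM in wild-type and 29.4, 25.0 and 25.9 CPM in transgenic mice. Here 2 of the 3 transgenic mice were below all wild-type mice, and the log2 fold change of -0.16 ± 0.072 had an adjusted p of 0.190 by edgeR. Akap13 (chromosome 7, 75455534 to 75754609, + strand) encodes AKAP-Lbc, an anchor that is also an exchange factor for the GTPase RhoA. It had 137, 143 and 159 CPM in wild-type and 155, 155 and 169 CPM in transgenic mice. The groups overlapped through the third wild-type mouse, and the log2 fold change of 0.13 ± 0.065, the highest of the family, had an adjusted p of 0.251 by edgeR. None of the 10 genes shares exonic bases with another gene on its strand in the exon coordinates deposited with the counts (Ensembl 95).

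Gene length and GC content were then set beside the fold changes, because both differed between the AKAP genes and the rest of the table. Exonic length ran from 3695 bp for Akap8 to 21350 bp for Akap9, with a median of 6642.5 bp, where the median of all tested genes was 3730 bp. Akap9 and Akap13 (20914 bp) lay at the percentiles 99.6 and 99.5 of the tested genes, and Akap6 (14848 bp) and Akap11 (11015 bp) were in the longest decile too. Transcript GC content ran from 41.3% for Akap11 to 53.5% for Akap1, with a median of 45.3%, where that of all tested genes was 49.9%. Akap5, Akap6, Akap9 and Akap10 lay between 44.9% and 45.5%, Akap7 at 43.3%, and Akap8, Akap12 and Akap13 between 48.6% and 51.8%.

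Across 14238 tested genes with a mean log2 CPM above 1, the log2 fold change went with GC content (Spearman's rho 0.502) and against log2 length (rho -0.304). Over the 10 AKAP genes rho was 0.576 for GC content and -0.442 for length. Leaving out Akap13, a choice made after its value was seen, moved these to 0.533 and -0.85 over 9 genes, so that the value for length rests on single genes. These correlations are across genes measured in the same 6 libraries, which are not independent replicates, and are given as a description. In the GC decile of Akap5, Akap6, Akap9 and Akap10 the median gene had a log2 fold change of -0.074, in that of Akap11, the decile of the lowest GC content, -0.18, and in that of Akap7 -0.11. In the longest decile, which holds Akap6, Akap9, Akap11 and Akap13, it was -0.11. Akap9 and Akap13 are nearly equal in length and were on opposite sides of this median, by -0.21 and by 0.24 on the log2 scale.

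**Figure D3:**
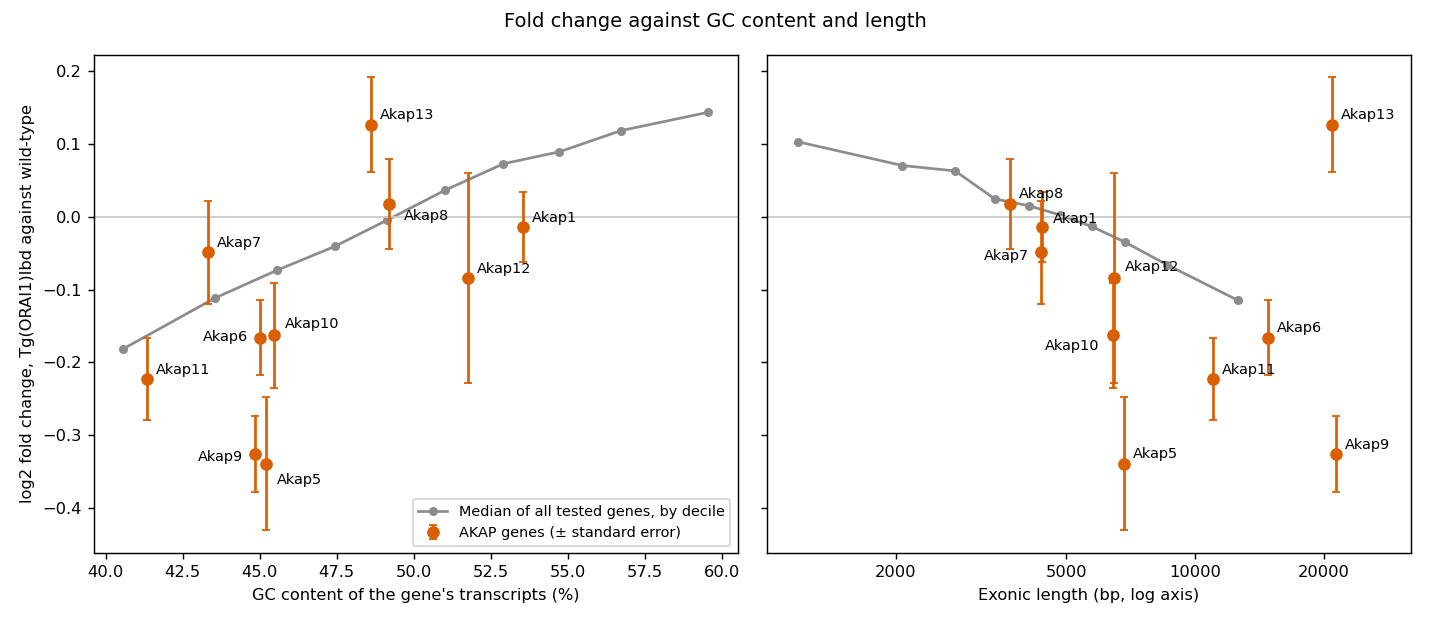
Log2 fold change (Tg(ORAI1)Ibd against wild-type) of the 10 AKAP genes (orange, ± SE) against transcript GC content (left, %) and exonic length (right, bp, log axis), with the median in each decile of the 14238 tested genes with a mean log2 CPM above 1 (grey). The grey line climbs from -0.18 to 0.14 with GC content and goes down from 0.10 to -0.11 with length, and Akap9 lies below it and Akap13 above it in both panels.

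Offsets are terms of the model that take the trend of each library on a gene property out of the comparison. Akap9 had a log2 fold change of -0.24 with GC offsets, -0.16 with length offsets and -0.15 with both. Under each of the 3 models 0 of the 10 AKAP genes passed the test in either direction, where 2.06%, 4.48% and 2.06% of all tested genes did. At an unadjusted p under 0.05, Akap5 and Akap9 were lower and Akap13 was higher under each of them, 3 of 10 where 21.2%, 25.6% and 20.7% of all tested genes were at this level in either direction. Under both offsets Akap11 and Akap6 had log2 fold changes of -0.020 and -0.011, and Akap5 went from -0.34 to -0.24 with an adjusted p of 0.183 by edgeR. Akap13 was at 0.28 with length offsets (edgeR's adjusted p 0.0815) and was 0.24 with both. The median of the family went from -0.12 to -0.082 with GC offsets, to -0.053 with length offsets and to -0.044 with both, and 7 of 10 values were then below 0.

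**Figure D4:**
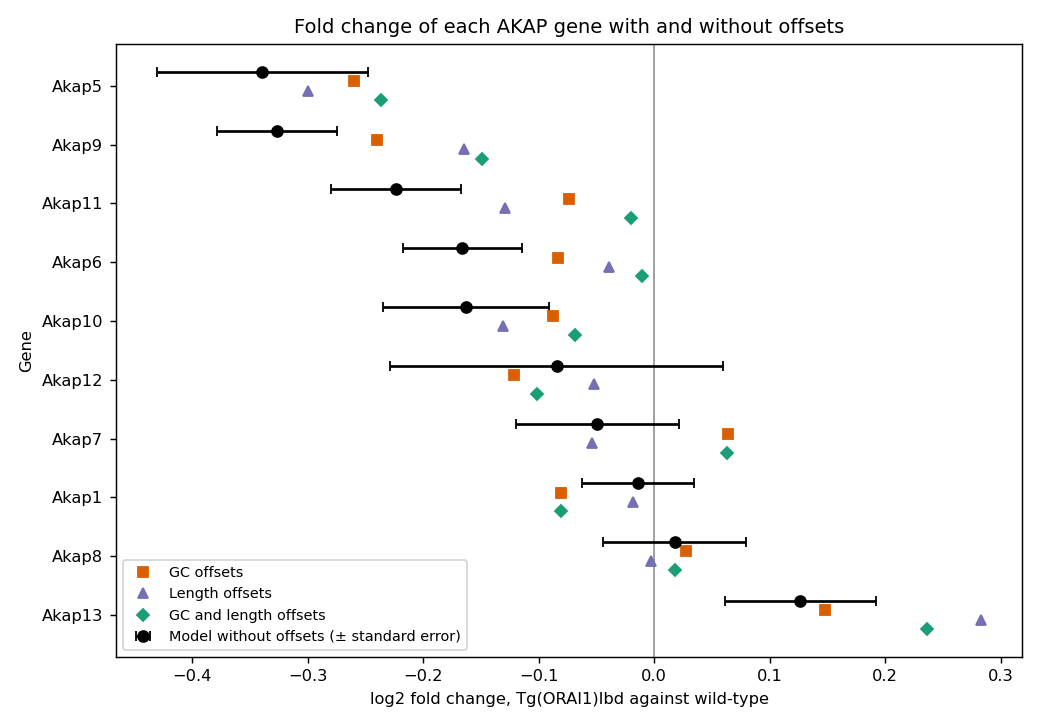
Log2 fold change of each AKAP gene between Tg(ORAI1)Ibd and wild-type mice in the model without offsets (black, ± SE) and with offsets for GC content, length or both (coloured symbols). Akap9 goes from -0.33 to -0.15 and Akap11 from -0.22 to -0.020 with both offsets, and Akap13 from 0.13 to 0.24.

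The other genes of the pathway were taken from 8 lists of 89 genes, of which 86 were tested. In all, 4 fell and 1 rose with edgeR's adjusted p under 0.05, where 7.10% of all tested genes were called in either direction. At an unadjusted p under 0.05, 20 of the 86 were lower and 9 higher, where 14.8% and 13.0% of all tested genes were, and the median log2 fold change was -0.043. Most of the calls were in a list of 22 other anchoring proteins, of which 20 were tested, 3 fell, 1 rose and the median was -0.17. Map2 of this list, a microtubule protein that anchors PKA in dendrites, is also among the 8 neuron markers and did not pass. Akap3 and Akap4, anchors of the sperm tail, were not tested, since Akap3 had 1 to 11 counts per library and Akap4 had 0 in all 6.

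Cbfa2t3, a transcriptional corepressor that can bind PKA regulatory subunits, had 29.9, 28.6 and 31.4 CPM in wild-type and 57.2, 51.6 and 46.9 CPM in transgenic mice. It rose by a log2 fold change of 0.79 ± 0.079 (edgeR's adjusted p 0.00493), and by 0.71 with both offsets (adjusted p 0.00437). Ezr encodes ezrin, which links PKA to the actin cortex, and had 75.2, 83.6 and 75.7 CPM against 61.3, 54.9 and 55.0 CPM. The groups did not overlap for either gene, and Ezr had a log2 fold change of -0.45 ± 0.065 (edgeR's adjusted p 0.0172) and of -0.54 with both offsets (adjusted p 0.00738). Akap17b had 29.9, 30.8 and 28.7 CPM against 25.6, 25.1 and 23.5 CPM, a log2 fold change of -0.27 ± 0.058 with an adjusted p of 0.0407 by edgeR, and of 0.210 with GC offsets. Opa1, a GTPase of mitochondrial fusion that anchors PKA on lipid droplets, had 187, 189 and 176 CPM against 161 CPM in each transgenic mouse. Its log2 fold change was -0.19 ± 0.044 with an adjusted p of 0.0446 by edgeR, and of 0.185 with GC offsets. Cbfa2t3 and Ezr thus passed with and without both offsets, while Akap17b and Opa1 no longer passed with GC offsets. With a mouse left out, Cbfa2t3 passed in 6 of 6 fits, Ezr in 2 (edgeR's adjusted p up to 0.0995, the call being lost without the first or second wild-type or the second or the third transgenic mouse), and Akap17b (without the first transgenic mouse) and Opa1 (without the third wild-type mouse) in 1 each.

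PKA itself was tested through its 6 subunit genes, of which 0 passed the test and 1 was lower at an unadjusted p under 0.05. That gene, Prkar2b, which encodes a regulatory subunit of the type that most AKAPs bind, had 42.6, 41.2 and 33.4 CPM against 30.0, 33.9 and 32.7 CPM (log2 fold change -0.28 ± 0.098, edgeR's adjusted p 0.117). Its groups overlapped through the third wild-type mouse. Of 3 genes for PKA inhibitor peptides, none passed by edgeR and Pkig was higher at an unadjusted p under 0.05, with a log2 fold change of 0.20 ± 0.073 and an adjusted p of 0.123.

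Enzymes that make and break down cyclic AMP gave no call by edgeR either, among 9 tested adenylyl cyclases and 16 phosphodiesterases. Adcy6 had 70.9, 67.6 and 69.2 CPM in wild-type and 78.2, 75.7 and 73.1 CPM in transgenic mice, with a log2 fold change of 0.13 ± 0.045 and an adjusted p of 0.120, and was the 1 cyclase at an unadjusted p under 0.05. Pde4a, a phosphodiesterase specific for cyclic AMP, had 115, 118 and 120 CPM against 158, 131 and 137 CPM. All its transgenic values were higher, and the log2 fold change of 0.27 ± 0.070 had an adjusted p of 0.0588 by edgeR. With length offsets the adjusted p was 0.0497, with GC offsets 0.153 (log2 fold change 0.16) and with both 0.104 (0.19). A further 2 phosphodiesterases were lower at an unadjusted p under 0.05.

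Of 14 genes for other enzymes that AKAPs anchor, 1 fell. Gsk3b, which encodes the glycogen synthase kinase 3β bound by the Akap11 protein, had 217, 210 and 201 CPM in wild-type and 170, 177 and 173 CPM in transgenic mice. The groups did not overlap, with a log2 fold change of -0.27 ± 0.046 and an adjusted p of 0.0254 by edgeR, which was 0.0612 with GC offsets, 0.0476 with length offsets and 0.0880 with both. The call of Gsk3b was lost without the first or second wild-type or the second or the third transgenic mouse (edgeR's adjusted p up to 0.127). Among 11 genes for membrane proteins that AKAPs place next to PKA or the scaffolds between them, 0 passed by edgeR. At an unadjusted p under 0.05, 3 of these 11 were lower, where 14.8% of all tested genes were. Dlg1, which encodes the scaffold SAP97 that joins the Akap5 protein to AMPA receptors, had 127, 121 and 129 CPM against 110, 114 and 119 CPM (log2 fold change -0.13 ± 0.049, edgeR's adjusted p 0.130). Of 7 genes of the CREB family and its coactivators, the transcription factors through which PKA reaches the nucleus, none passed by edgeR. At an unadjusted p under 0.05, 2 of these 7 were higher, where 13.0% of all tested genes were. Crtc2, a CREB coactivator, had 29.4, 30.6 and 28.2 CPM against 33.0, 32.6 and 33.0 CPM, a log2 fold change of 0.16 ± 0.051 with an adjusted p of 0.0960. The Crtc2 groups did not overlap. Among the lists without a call, DESeq2's Wald test called 1 gene, Pde4a, and limma-voom 0, where 13.8% and 6.61% of all tested genes were called. With length offsets edgeR called Pde4a and Crebbp (log2 fold change 0.20, adjusted p 0.0394), where 4.48% of all tested genes were called. With the replicate number as a block edgeR called Pde4d (log2 fold change -0.34, adjusted p 0.0491), where 3.87% were. Apart from the list of other anchoring proteins, 1 of 66 tested pathway genes fell and 0 rose by edgeR.

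**Figure D5:**
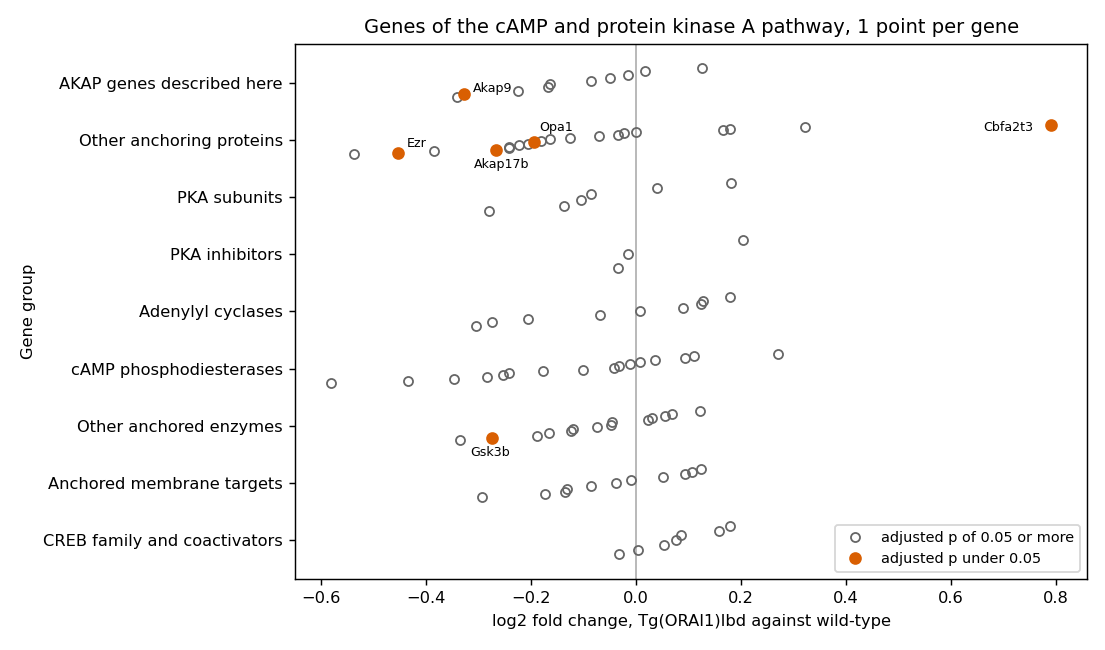
Log2 fold change (Tg(ORAI1)Ibd against wild-type) of the AKAP genes and of 8 other groups of the cyclic AMP and PKA pathway, 1 point per tested gene, with those under an adjusted p of 0.05 filled and named. Filled points are Akap9, 4 other anchoring proteins (Ezr, Akap17b, Opa1 and Cbfa2t3) and Gsk3b, and the groups of PKA subunits, inhibitors, cyclases, phosphodiesterases, membrane targets and CREB factors hold none.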

How the data were processed

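Hippocampal RNA of 3 wild-type and 3 Tg(ORAI1)Ibd mice was sequenced with 1 library per mouse. The authors trimmed 76 bp reads with Trimmomatic (minimum length 65), aligned them to mm10 with STAR and counted fragments per gene with featureCounts 1.5.0-p1, and they deposited these counts without normalization. Per the file headers, read pairs, strand setting 2, primary alignments and a mapping quality of at least 3 were used on Ensembl 95 (GRCm38). The deposited table also gives the exonic length of each gene. All 6 count columns were used, assigned by their labels, with totals of 37414241 to 52497799.

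Genes were kept by filterByExpr (minimum count 10), scaled by TMM and tested with edgeR 4.0.16 (quasi-likelihood, no covariates, Benjamini-Hochberg threshold 0.05) in R 4.3.3. The authors' own test, NOISeq, was not run. FPKM were computed from counts, deposited lengths and scaled totals. GC content and gene models came from GENCODE M21, where 54809 genes were found, of which 54723 had a transcript GC content. Offsets were loess trends (span 0.5) on GC content or log2 length in genes with a mean log2 CPM above 1. Alternatives were DESeq2 1.42.0 size factors and Wald test, limma-voom 3.58.1, total counts, other filters, the offsets, the replicate number as a block and each mouse left out. Deciles, summed CPM and promoter motifs were computed in Python 3.11.15 with numpy 2.4.6, pandas 2.3.3 and scipy 1.17.1, and drawn with matplotlib 3.10.9. Fits were tested on simulated data.

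The members and lists were chosen with earlier results of these data known. Named genes are all members, Orai1, up to 4 pathway genes per list with an adjusted p under 0.05 or else the one with the smallest p, and 2 choroid plexus genes. Cldn5, Map2, Akap8l, Akap3, Akap4, Crebbp, Pde4d and the genes of the Akap2 locus were named after their values were seen.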

Additional observations from a re-analysis of the deposited data

How the results depend on the processing

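The count of AKAP genes with a lower level in transgenic mice was 1 in the model as reported, with DESeq2's size factors, total counts, limma-voom and a filter of 10 counts in every library. It was 3 with DESeq2's Wald test (Akap5, Akap9 and Akap11), 2 without a filter and 0 with GC offsets, length offsets or both. Of all tested genes 764 of 19087 were lower as reported, 7.29% with the Wald test, 2.60% without a filter, 1.43% with GC offsets, 2.37% with length offsets and 1.39% with both, and the counts of AKAP and pathway genes stand beside these shares. With a mouse left out it ran from 0 to 2. As replicate numbers are shared by the genotypes, a block for the number was tried. Deviations of same-numbered mice correlated at 0.398, -0.357 and 0.388 over 11189 genes, which are not independent replicates. Those of differing numbers correlated at -0.0917 on average. As the 3 deviations of a genotype are tied to their group mean, these values cannot tell whether the numbers pair the mice. With the replicate block 2 AKAP genes were lower (Akap5 and Akap9, edgeR's adjusted p 0.0494 and 0.0404), and 738 genes in all in place of 1355. With the block and GC or length offsets 0 were lower, where 1.63% and 1.75% of all tested genes were. With length offsets and the block 1 was higher (Akap13, 0.29, edgeR's adjusted p 0.0478), where 0.980% of all tested genes were. The share of higher among all calls moved too, as 394 genes were called with GC offsets, 121 of them higher, and 856 with length offsets, 404 of them higher.

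Of the pathway genes, 4 were lower as reported, 6 with DESeq2's Wald test, 2 without a filter or with length offsets, 1 with GC offsets or both offsets, 2 with GC offsets and the block, 1 with length offsets and the block, and 0 to 5 with a mouse left out. The 1 higher became 2 with DESeq2's Wald test or no filter, 3 with length offsets, and 1 to 2 with a mouse left out. Of all tested genes 3.10% were higher as reported, 6.54% with the Wald test, 1.88% without a filter and 2.12% with length offsets. With a mouse left out the share of all tested genes called higher ran from 0.0570% to 2.40%. The direction of Akap7 turned with GC offsets (0.064), both offsets (0.063) and GC offsets with the block (0.063), and that of Akap8 with length offsets (-0.0027) and length offsets with the block (-0.00035). With a mouse left out, Akap1 ran from -0.034 to 0.042, Akap7 from -0.075 to 0.0081, Akap8 from -0.037 to 0.072 and Akap12 from -0.20 to 0.049. Akap5, Akap6, Akap9, Akap10, Akap11 and Akap13 kept their direction under all 18 alternatives. The cause of these changes was not tested. Without division by length the wild-type rank of Akap1 was 7, of Akap5 6, of Akap6 2, of Akap7 9, of Akap8 4, of Akap9 5 and of Akap13 3. With a wild-type mouse left out, Akap8 and Akap11 ranked 1 or 2 and Akap9 and Akap10 9 or 10.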

Other observations

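The locus of Akap2 on chromosome 4 is annotated as overlapping genes, since 84.4% of the exonic bases of Akap2 lie in exons of Pakap on the same strand. Akap2 had 27, 14 and 15 counts in wild-type and 11, 12 and 12 counts in transgenic libraries, and Pakap 34, 30 and 24 against 30, 10 and 17 counts. Palm2, at the same locus, had 435, 386 and 248 against 296, 216 and 225 counts, with a log2 fold change of -0.41 and an adjusted p of 0.0995 by edgeR. Reads that fall in shared exons may be left uncounted or split, so the level of Akap2 is uncertain, and neither Akap2 nor Pakap passed the test (edgeR's adjusted p 0.262 and 0.315).

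Akap8l, the neighbour and paralog of Akap8, had 146, 142 and 144 CPM in wild-type and 175, 147 and 162 CPM in transgenic mice. All transgenic values were higher, with a log2 fold change of 0.17 ± 0.065 and an adjusted p of 0.146 by edgeR, and of 0.059 with GC offsets (adjusted p 0.581) and 0.025 with both offsets (0.857), while the values of Akap8 overlapped.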
